A study of Danio rerio with 12 samples.

Results

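The retinoic acid receptor (RAR) is a nuclear receptor that binds DNA together with the retinoid X receptor (RXR). The subject here is 273 RAR-bound sites of the zebrafish genome that lie near genes regulated by retinoic acid (RA) in endodermal cells, and how open the chromatin at these sites was with and without RA. The study assigned each site to a gene, and a list of sites near genes raised by RA holds 194 entries. After removal of 3 repeated positions it gave 191 sites of 94 genes. The list for genes lowered by RA gave 82 sites of 61 genes, and no position stood in both lists. For short, the first are called raised-gene sites and the second lowered-gene sites. A gene had at most 11 sites, and 58 of the 94 raised genes and 44 of the 61 lowered genes had only 1. Sites of the same gene share their surroundings and are not independent. All 273 sites compare with 245646 regions that the whole series called open in at least 1 sample. The rule that picks the sites uses no measurement of open chromatin, but it was set with earlier results of these data known.

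Chromatin was measured by ATAC-seq, in which a transposase inserts sequencing adapters where DNA is free of nucleosomes. Embryos of the line Tg(sox17:GFP), whose endodermal cells are labelled by GFP under the sox17 promoter, grew at 23 °C and were sorted at the 3-somite stage. Treatments ran from the 2-cell stage. The 3 RA samples are GFP+ endodermal cells of RA-treated embryos, the 3 BMS493 samples are GFP+ cells of embryos given BMS493 (an inverse agonist of RARs), and the 3 DMSO samples are GFP+ cells of embryos given the solvent alone. The 3 non-endodermal (NE) samples are GFP- cells of DMSO-treated embryos, so all 12 samples carry the transgene. GFP marks cells by the activity of the sox17 promoter alone. The RAR sites come from another assay, a ChIP-seq of Myc-tagged RARaa in whole embryos that were injected with its mRNA and given RA shortly before fixation. They were therefore not mapped in sorted endodermal cells or without RA. The regulation of the genes comes from RNA-seq of endodermal cells under the same treatments.

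In the textbook view, RAR and RXR sit on retinoic acid response elements, pairs of direct repeats, with or without ligand. Without RA the pair recruits corepressors that keep chromatin compact, and RA exchanges them for coactivators, while an inverse agonist strengthens the corepressor contact. In the early embryo RA patterns the body along the head-to-tail axis, sets the hox code of the hindbrain and is needed for the pancreatic field of the endoderm. Its level is held by its own targets, above all the Cyp26 enzymes that degrade RA and Dhrs3, which turns retinaldehyde back into retinol.

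Each sample has its own list of peaks. Total tags per sample ranged from 18928561 to 32052207, and the lists held 51301 (DMSO replicate 1) to 143755 peaks (NE replicate 2). Within a list, each peak received the percentile rank of its pileup, the signal at its summit, so that 100 is the tallest peak and 50 the median. A site took the rank of the tallest peak overlapping it by at least 1 bp, and a rank of 0 where no peak was called. A rank of 0 therefore means that no peak passed the authors' threshold, not that the chromatin was closed. Ranks end at 100, so a site that is already tall can gain few points even where its pileup rises. DMSO replicate 1 has the shortest list. Most shares and medians of the 2 lists of sites that rest on DMSO samples, and some counts, are also given without it. Values for gene lists, site classes, signs per gene and ranks that do not overlap are given only with it.

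More raised-gene sites had a peak in RA samples than in any other condition. Of the 191 sites, 86.4%, 85.3% and 75.9% were called in the 3 RA samples, against 58.1%, 69.1% and 58.1% in BMS493, 51.3%, 74.3% and 79.6% in DMSO and 62.8%, 75.9% and 68.6% in NE samples. The RA values lay above every BMS493 value and overlapped those of DMSO. The means were 82.5% ± 5.77 in RA, 61.8% ± 6.35 in BMS493, 68.4% ± 15.04 in DMSO and 69.1% ± 6.56 in NE (SD, n = 3 each). Between RA and DMSO the difference of 14.1 points is smaller than the SD of DMSO, and without DMSO replicate 1 it was 5.58 points. Between RA and BMS493 it was 20.8 points. Of all merged regions, 44.8%, 35.6% and 31.3% were called in RA, 28.9%, 44.0% and 32.5% in BMS493, 19.5%, 41.7% and 46.3% in DMSO and 36.2%, 55.7% and 39.5% in NE.

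Lowered-gene sites followed another order, with NE at the top. In RA samples 70.7%, 61.0% and 58.5% of the 82 sites were called, against 51.2%, 62.2% and 53.7% in BMS493, 39.0%, 65.9% and 69.5% in DMSO and 72.0%, 78.0% and 73.2% in NE. RA overlapped both BMS493 and DMSO, whereas every NE value lay above every value of the endodermal samples. The means were 63.4% ± 6.45 in RA, 55.7% ± 5.76 in BMS493, 58.1% ± 16.6 in DMSO and 74.4% ± 3.23 in NE (SD, n = 3 each). Without DMSO replicate 1 the mean of RA was 4.27 points below that of DMSO (-4.27 points), where with it RA was 5.28 points above. NE also had the highest mean over all merged regions, at 43.8%, against 37.2% in RA, 35.1% in BMS493 and 35.8% in DMSO.

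**Figure D1:**
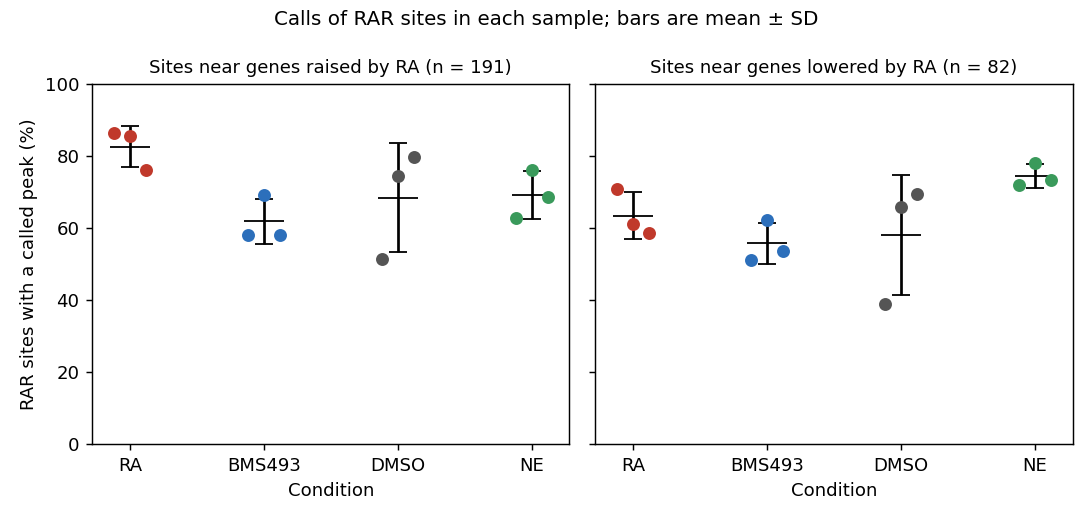
Percentage of RAR sites with a called peak in each sample, for the 191 raised-gene sites (left) and the 82 lowered-gene sites (right), with the mean and SD of 3 samples per condition. The RA samples reach 75.9% to 86.4% of the raised-gene sites, above all BMS493 samples, and the NE samples reach 72.0% to 78.0% of the lowered-gene sites, above all endodermal samples.

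The gap between the 2 lists of sites can be read within each sample. Raised-gene sites were called more often than lowered-gene sites by 15.7, 24.4 and 17.4 points in RA, by 6.90, 6.91 and 4.46 points in BMS493 and by 12.3, 8.49 and 10.1 points in DMSO. In NE samples the gap had the opposite sign, at -9.12, -2.13 and -4.58 points. The 4 conditions did not overlap in this gap, with RA highest, then DMSO, then BMS493, then NE.

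Many sites were open in every sample. A peak was called in all 12 samples at 81 raised-gene sites (42.4%) and 29 lowered-gene sites (35.4%), while 28445 of the 245646 merged regions (11.6%) were called in all 12. No sample called a peak at 12 raised-gene sites (6.28%) and 11 lowered-gene sites (13.4%). Called peaks were taller at RAR sites than in the rest of the lists. At raised-gene sites the median rank of called peaks was 86.9 to 92.8 in RA samples, 68.8 to 81.4 in BMS493, 71.9 to 81.8 in DMSO and 71.6 to 82.3 in NE. At lowered-gene sites it was 66.2 to 77.8 in RA, 68.8 to 81.4 in BMS493, 69.7 to 76.0 in DMSO and 80.3 to 87.4 in NE. The median fold enrichment over local background, as the authors' caller gives it, was 8.5 to 9.90 at raised-gene sites in RA and 6.85 to 8.24 in BMS493, where the median of all peaks was 5.33 to 5.71 in RA and 5.32 to 5.48 in BMS493. Peak summits lay close to the middle of the ChIP sites, with a median distance of 36 to 52 bp at raised-gene sites and 36 to 58 bp at lowered-gene sites over the 12 samples.

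To test single sites, peaks of all samples that overlap were merged into regions, and ranks were compared by limma over the 127026 regions called in at least 3 samples. The fit took all 12 samples, and p-values were adjusted over all these regions by the Benjamini-Hochberg method. Of the raised-gene sites 166 lay in a region that was tested, and of the lowered-gene sites 66, each in a region of its own. At 10 of the 166 and 9 of the 66 the rank of the merged region differs from that of the site in at least 1 sample. The region can hold a taller peak beside the site, or the peak of the site can lie outside the region. A difference is given in rank points. The filter can admit a region through RA samples alone, which was so for 3 raised-gene sites, or through NE samples alone. Counts over the tested sites are descriptions. Those by gene list, of ranks that do not overlap and of calls in whole groups include sites that entered through RA or NE. A site whose region was called in fewer than 3 samples outside the condition where it is high had to differ to enter the fit, and its values are given without a p.

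Most raised-gene sites had higher ranks in RA than in BMS493. The median difference RA minus BMS493 was 20.3 points at the 166 raised-gene sites and 1.98 points at the 66 lowered-gene sites, against 0.06 points over all regions tested. It was positive at 151 raised-gene sites and negative at 14, against 53.1% and 44.2% of all regions. The 151 include the her13 site, which had no peak in RA or BMS493. Its difference of 1.28e-16 points is a rounding residue of 0. By limma, 22 raised-gene sites ranked higher in RA and 1 lower (adjusted p under 0.05), where 0.625% of all regions passed as higher and 0.131% as lower. Of these 22 sites, 7 had fewer than 3 calls outside RA and 15 had 3 or more. At an unadjusted p under 0.05, 71 raised-gene sites (42.8%) were higher and 2 (1.2%) lower, against 5.64% and 3.47% of all regions. Among lowered-gene sites 10 (15.2%) were higher and 6 (9.09%) lower by this measure, and 1 was higher with adjustment. All 3 RA ranks exceeded all 3 BMS493 ranks at 80 raised-gene sites (48.2%) and 8 lowered-gene sites (12.1%), against 7.51% of all regions. The reverse was seen at 1 raised-gene site (0.602%) and 5 lowered-gene sites (7.58%), against 4.48% of all regions. The 80 sites include some with fewer than 3 calls outside RA and were not split by such calls. Without BMS493 replicate 3 the median at lowered-gene sites was -0.20 points.

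The adjusted count depended on single libraries more than the unadjusted one. With 1 of the 12 samples left out, 0 to 38 raised-gene sites passed as higher in RA than in BMS493 with adjustment. It was 0 without RA replicate 2 or 3, without any 1 of the BMS493 replicates and without NE replicate 1 or 3. It was 9, 14 and 10 without RA replicate 1, DMSO replicate 2 and NE replicate 2, and 38 without DMSO replicate 1. Without DMSO replicate 3 it also lay within 0 to 38. At an unadjusted p these counts were 52 to 81, and the median stayed between 14.6 and 26.02 points. Among the 149 raised-gene sites in regions called in at least 3 samples outside RA, 58 (38.9%) were higher at an unadjusted p with a median of 18.4 points, against 3.62% and 0 points over the 112989 such regions. RAR sites ranked higher than most regions to begin with (median of the mean rank over 12 samples 65.0 at raised-gene sites and 59.5 at lowered-gene sites, against 25.5 over all regions tested). The part of peak height in these shares was not tested.

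The median difference at raised-gene sites was smaller between RA and DMSO. Both comparisons use the same RA samples. The median difference RA minus DMSO was 13.3 points at raised-gene sites and 4.64 points at lowered-gene sites, against 0 over all regions tested. By limma with adjustment, 2 raised-gene sites were higher and 0 lower, against 0.194% and 0.0362% of all regions. Both had fewer than 3 calls outside RA, so that no raised-gene site with 3 or more such calls passed. At an unadjusted p under 0.05 the counts were 50 higher (30.1%) and 3 lower (1.81%), against 4.44% and 2.54% of all regions. Lowered-gene sites had 5 higher and 5 lower (7.58% each), and none with adjustment. All 3 RA ranks exceeded all 3 DMSO ranks at 63 raised-gene sites (37.95%) and 3 lowered-gene sites (4.55%), where 5.27% of all regions did. The reverse held at 1 raised-gene site and 3 lowered-gene sites, where 1.97% of all regions did. The 63 sites include some with fewer than 3 calls outside RA and were not split by such calls. With 1 sample left out, 0 or 1 raised-gene site passed with adjustment, and it was 0 for each sample except RA replicate 1. Without DMSO replicate 1 the median at raised-gene sites was 4 points and 33 sites were higher at an unadjusted p, and the median at lowered-gene sites turned to -0.77 points. With every list shortened to the length of the shortest, 31 raised-gene sites passed as higher and 1 as lower. In regions called in at least 3 samples outside RA, 39 of 149 raised-gene sites (26.2%) were higher at an unadjusted p, against 2.59% of such regions.

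**Figure D2:**
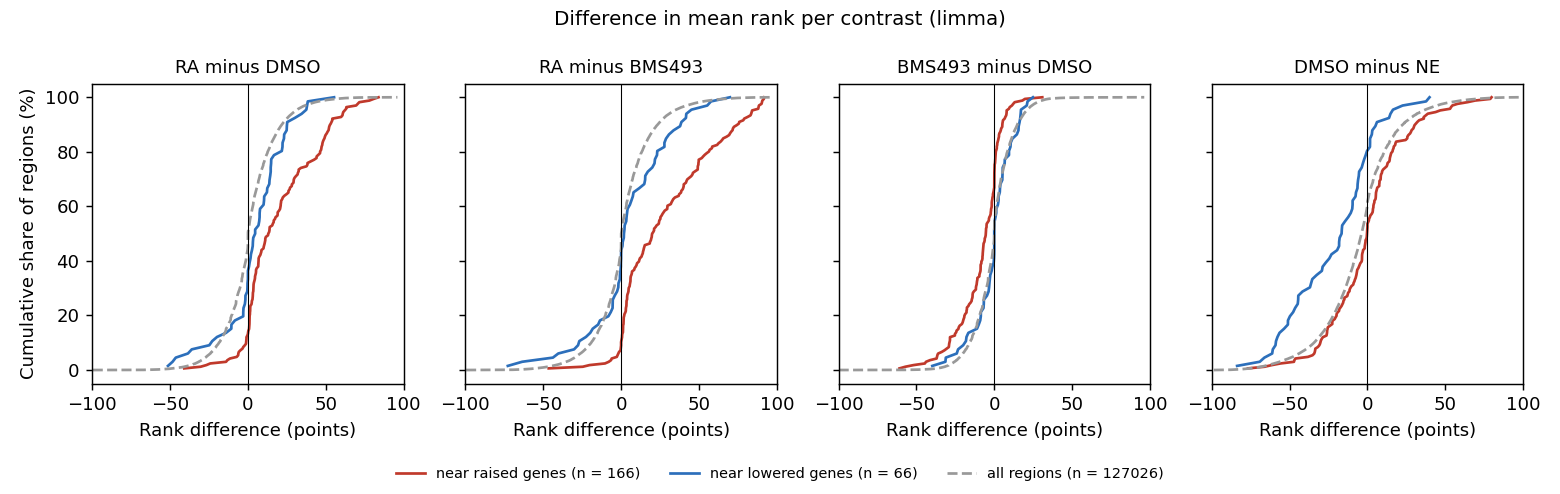
Cumulative share of regions (vertical axis, %) by difference in mean rank (horizontal axis, rank points) in 4 contrasts, for raised-gene sites (red), lowered-gene sites (blue) and all 127026 regions tested (dashed grey). The red curve lies to the right of the others in RA minus BMS493 (median 20.3) and RA minus DMSO (median 13.3), and the blue curve lies to the left in DMSO minus NE (median -16.5).

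Between BMS493 and DMSO no RAR site passed with adjustment. The median difference BMS493 minus DMSO was -5.40 points at raised-gene sites and 0 points at lowered-gene sites, against 0 over all regions tested. Positive and negative differences numbered 48 and 110 at raised-gene sites, against 46.0% and 48.0% of all regions. By limma with adjustment 0 sites were higher and 0 lower, where 0% of all regions passed as higher and 0.000787% as lower. At an unadjusted p, 15 raised-gene sites (9.04%) and 2 lowered-gene sites (3.03%) were lower in BMS493 and none was higher, against 0.989% and 0.786% of all regions. All 3 BMS493 ranks were below all 3 DMSO ranks at 12 raised-gene sites (7.23%, against 1.15% of all regions) and above them at 1 (against 1.23%). With 1 sample left out the median at raised-gene sites ran from -11.6 to -0.43 points and the sites lower at an unadjusted p from 34 to 6. It was -11.6 points with 34 sites without DMSO replicate 1, -0.43 with 6 without DMSO replicate 3, -0.96 with 10 without DMSO replicate 2, -1.56 with 7 without BMS493 replicate 1, -8.18 with 19 without BMS493 replicate 2 and -1.42 with 11 without BMS493 replicate 3.

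Few sites switched between called and not called in whole groups. Peaks were called in all 3 RA and in no DMSO sample at 5 raised-gene sites (3.01% of those tested, against 1.33% of all regions) and at 1 lowered-gene site. The raised-gene sites were those of cyp26b1 (site 2), fgg, epb41l4a, EFNA2 (2 of 2) and tshz1 (site 1), and the lowered-gene site was that of lmx1bb (site 1). The reverse was seen at 0 raised-gene sites and at ebf3 site 1 of the lowered genes, where 0.492% of all regions did so. Against BMS493 the numbers were 17 raised-gene sites, of which 16 as whole regions (9.64%, against 2.35% of all regions), and 3 lowered-gene sites. Calls in all BMS493 and in no RA sample were found at 0 raised-gene and 2 lowered-gene sites, where 1.12% of all regions showed them. Of the 17 raised-gene sites, 5 had no peak in DMSO either.

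**Figure D3:**
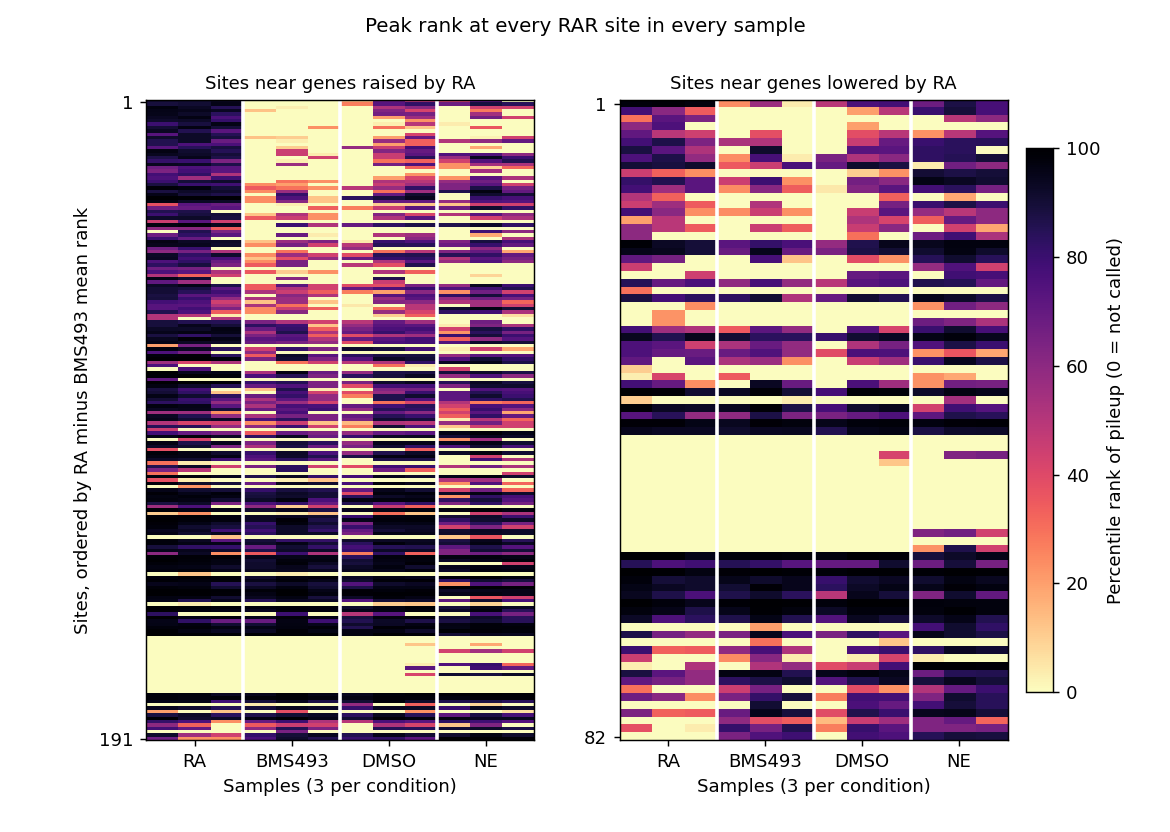
Percentile rank of the pileup at each of the 191 raised-gene sites (left) and 82 lowered-gene sites (right), with rows ordered by RA minus BMS493 mean rank and columns by condition with 3 samples each. Dark is a tall peak and pale yellow no called peak. The upper rows on the left are dark in RA and pale in BMS493, and at 81 and 29 sites all 12 samples have a peak.

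Genes of retinoid metabolism held 7 of the 22 raised-gene sites that passed as higher in RA than in BMS493. Retinoid metabolism comprised 29 sites of cyp26a1, cyp26b1, dhrs3a and dhrs3b, all near raised genes, and 25 were tested. Their median difference was 40.2 points for RA minus BMS493 and 29.2 points for RA minus DMSO. Against BMS493, 16 were higher at an unadjusted p and 0 lower, and 7 passed with adjustment, where 5.64%, 3.47% and 0.625% of all regions did. Of the 7, cyp26b1 sites 2 and 7 had fewer than 3 calls outside RA. Against DMSO these counts were 12, 0 and the same 2 sites, where 4.44%, 2.54% and 0.194% of all regions did.

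The cyp26b1 gene, which encodes an RA-degrading cytochrome P450, had 11 sites over 185017 bp of chromosome 7. Its site 2 in the gene body (Zv9, chr7:26435898-26436170) had ranks of 93.4, 85.6 and 72.5 in RA samples and no peak in any of the other 9 samples. Site 7, distal intergenic at chr7:26534785-26535101, had ranks of 91.5, 92.2 and 81.1 in RA, against 0, 0 and 0 in BMS493, 0, 0 and 22.7 in DMSO and 0 in all NE samples. These sites, which entered the fit through RA, differed from DMSO by 83.8 ± 12.9 (SE) and 80.7 ± 13.7 points and from BMS493 by 83.8 ± 12.9 and 88.3 ± 13.7 points. Site 5 (chr7:26450962-26451462) ranked 67.4, 75.5 and 72.5 in RA, against 0 in all BMS493 samples and 0, 0 and 33.2 in DMSO, a difference of 71.8 ± 14.8 points from BMS493 (limma adjusted p = 0.0324).

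Only 441 bp before site 2, cyp26b1 site 1 behaved otherwise. It ranked 100, 99.2 and 99.3 in RA, against 23.9, 74.8 and 12.3 in BMS493 and 83.4, 88.7 and 94.2 in DMSO. By rank DMSO thus lay near RA and away from BMS493. By pileup, which is not scaled between samples, it did not lie near RA. The pileups were 70, 47 and 45 in RA, 17, 25 and 31 in DMSO and 8, 18 and 7 in BMS493. Its difference of 62.5 ± 17.7 points from BMS493 did not pass (limma adjusted p = 0.124). Site 6 of the same gene had no peak in any endodermal sample and ranks of 43.3, 54.6 and 43.7 in NE (DMSO minus NE -47.2 ± 10 points, in a region that entered through NE). Sites 3, 8 and 11 had a peak in at most 3 of 12 samples.

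Expression of dhrs3a, whose enzyme lowers retinaldehyde, fell with BMS493 in the study's RNA-seq as well as rising with RA, and 3 of its 4 sites passed against BMS493. Site 4, distal at chr23:21970591-21970888, had ranks of 95.5, 94.8 and 93.5 in RA, against 12.5, 0 and 0 in BMS493, 0, 62.2 and 42.2 in DMSO and 0, 27.6 and 0 in NE. The difference from BMS493 was 90.4 ± 17.4 points (limma adjusted p = 0.0257). Sites 2 and 3 lie 486 bp apart, between 1 and 10 kb from the gene start, and their differences from BMS493 were 90.7 ± 18.3 (limma adjusted p = 0.0304) and 90.2 ± 19.8 points (limma adjusted p = 0.0416). At these 3 sites DMSO was intermediate in 2 samples and had no peak in replicate 1. Site 1 had no peak in any sample.

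Most sites of dhrs3b, the paralogue, had tall peaks with or without RA. At site 6 all 12 ranks lay between 96.2 and 99.0. The dhrs3b site that differed most was site 4, with 87.0, 94.8 and 86.9 in RA, against 0, 0 and 43.7 in BMS493 and 0, 45.7 and 84.0 in DMSO (RA minus BMS493 71.6 ± 18.5 points, limma adjusted p = 0.0843, in a region that held a taller peak beside the site).

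The cyp26a1 gene, the other early RA-degrading enzyme, had 7 sites over 69910 bp of chromosome 12. Site 2, distal at chr12:9678593-9678923, passed against BMS493 with 40.2 ± 8.9 points (limma adjusted p = 0.0434). Its ranks were 89.9, 88.3 and 72.5 in RA, against 35, 51.3 and 43.7 in BMS493 and 69.7, 76.0 and 80.3 in DMSO, so that BMS493 was the condition that stood apart. Site 4, within 1 kb of the gene start and in a conserved noncoding element (CNE), ranked 95.5, 93.0 and 92.7 in RA, against 68.8, 65.2 and 58.4 in BMS493 and 39.4, 76.0 and 78.1 in DMSO. Its differences of 29.6 ± 9.0 and 29.2 ± 9.0 points did not pass (limma adjusted p = 0.165 against BMS493 and 0.282 against DMSO), although no rank of RA overlapped.

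**Figure D4:**
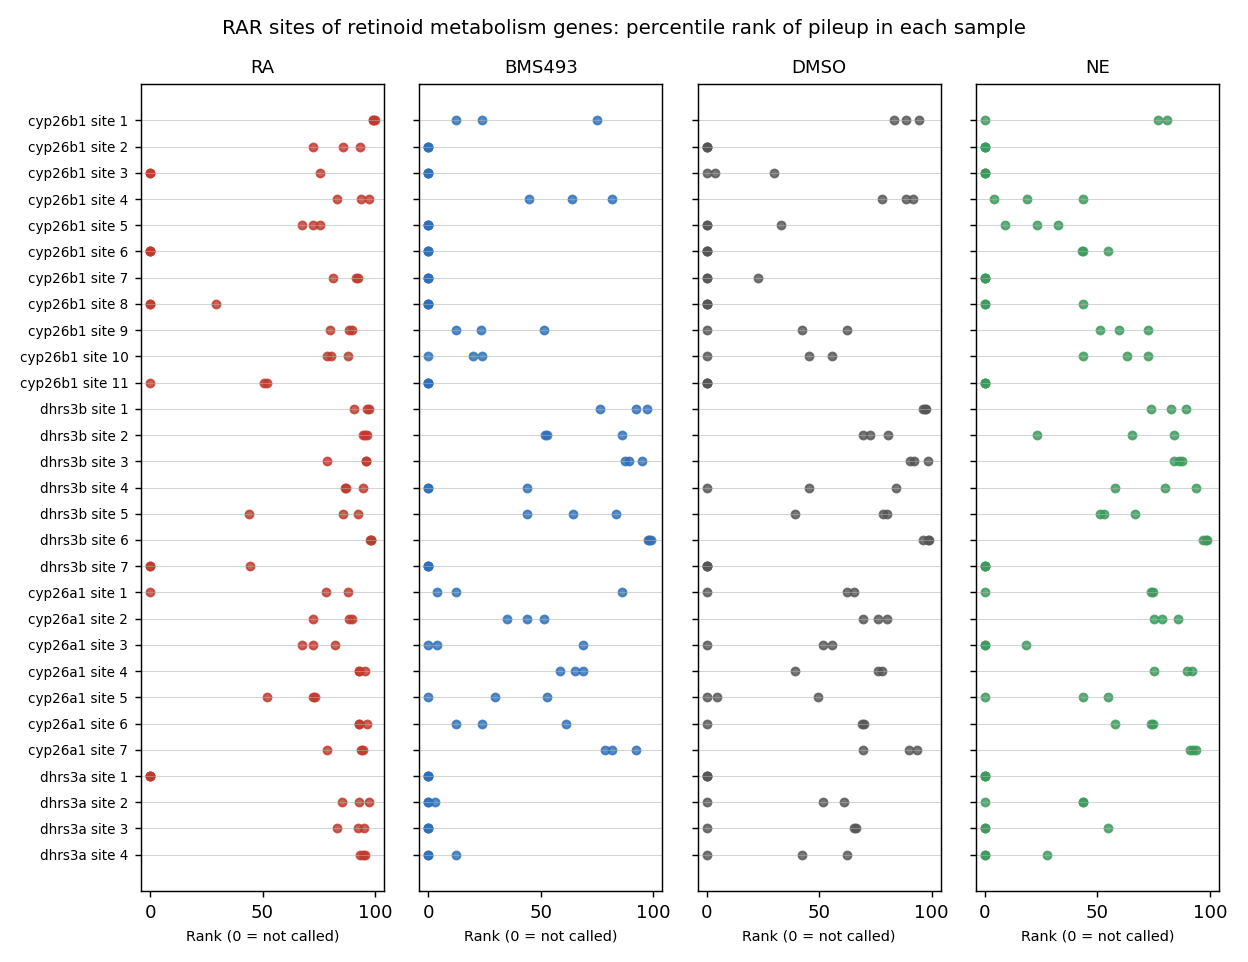
Percentile rank of the pileup (horizontal axis, 0 where no peak was called) at the 29 RAR sites of cyp26b1, dhrs3b, cyp26a1 and dhrs3a, with 1 point per sample and 1 panel per condition. At cyp26b1 site 2 the RA samples rank 72.5 to 93.4 and the other 9 samples have no peak, while dhrs3b site 6 ranks above 96 in every sample.

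Hox genes, which give cells their position along the body axis, and their cofactors had 32 sites of 11 genes, and 26 were tested. The list includes skap1, an adaptor gene beside hoxb1b, whose site 5 lies 22911 bp from the nearest hoxb1b site. The median difference was 21.4 points for RA minus BMS493 and 20.9 points for RA minus DMSO, and 12 and 5 sites were higher at an unadjusted p with none lower, where 5.64% and 4.44% of all regions were higher. Only skap1 site 5, in a CNE at chr12:28740406-28740802, passed with adjustment. It ranked 93.4, 96.3 and 75.8 in RA, against 0 in all BMS493 samples, 0, 20.2 and 55.7 in DMSO and 0, 66.5 and 43.7 in NE, a difference of 88.5 ± 18.9 points from BMS493 (limma adjusted p = 0.0387). At hoxa1a, site 1 ranked 94.5, 94.3 and 91.8 in RA, against 23.9, 65.2 and 43.7 in BMS493 and 49.6, 84.5 and 84.0 in DMSO (RA minus BMS493 49.3 ± 11.3 points, limma adjusted p = 0.0517). At hoxa3a site 2 there were peaks in RA replicates 2 and 3 (85.6 and 63.9) and NE replicates 2 and 3 (78.9 and 59.8) and in no BMS493 or DMSO sample. At hoxc1a site 4 the RA ranks were 50.5, 49.2 and 3.9, against 0 in all BMS493 samples and 0, 10.4 and 33.2 in DMSO. Some other hox sites were open in every sample, while hoxb1a site 3, skap1 sites 1 and 4 and hoxc1a site 1 had no peak in any. At hoxb1a site 2 and hoxb3a site 2, both in CNEs, all 12 samples had a peak.

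The pancreas and endoderm regulators had 11 sites of 6 genes, and their median differences were 3.9 points for RA minus BMS493 and 3.4 points for RA minus DMSO over the 10 tested. The site of gata6, an endodermal zinc finger factor, ranked 98.9 to 99.9 in RA, 95.3 to 99.7 in BMS493, 97.8 to 98.8 in DMSO and 93.0 to 95.5 in NE. Such ranks leave little room for a rise on a scale that ends at 100. A site in the body of hnf1ba, a homeodomain factor of the gut and pancreas, ranked 98.2, 97.6 and 96.4 in RA, 91.5, 98.1 and 93.2 in BMS493 and 89.1, 95.1 and 98.6 in DMSO, against 0, 0 and 43.7 in NE. This site was tall in all endodermal samples, and DMSO exceeded NE by 79.7 ± 9.7 points (limma adjusted p = 0.00016). The other hnf1ba site had a peak in all 12 samples, those of NE included. At insm1b, a zinc finger factor of endocrine cells, site 2 ranked 89.9, 84.0 and 78.7 in RA, against 52.6, 45.2 and 34.2 in BMS493 and 27.1, 20.2 and 60.9 in DMSO. No rank of RA overlapped the others there, but the differences of 40.2 ± 15.7 and 48.1 ± 15.7 points did not pass (limma adjusted p = 0.374 and 0.343).

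A single raised-gene site passed in the opposite direction. At jag2b, also on the pancreas list, which encodes a Notch ligand, site 1 in the gene body (chr20:21531017-21531379) ranked 67.4, 22.6 and 23.5 in RA, against 75.8, 91.4 and 85.7 in BMS493, 80.8, 82.8 and 72.6 in DMSO and 99.4, 99.8 and 98.4 in NE. The difference RA minus BMS493 was -46.5 ± 10 points (limma adjusted p = 0.0395), and the difference of -40.9 ± 10 points from DMSO did not pass (limma adjusted p = 0.111). Over 20 alternatives the call against BMS493 was kept in 8, and its limma adjusted p reached 0.958. Calls of raised-gene sites as higher in RA were not stable either. Among those with 3 or more calls outside RA, col7a1l site 1 was kept in 4 of 20 and zgc:158309 in 12 of 20. The limma adjusted p of dhrs3a site 3, kept in 6 of 20, reached 0.484. The other jag2b site had a positive difference for RA minus BMS493 and for RA minus DMSO. The site of olig2, a neural helix-loop-helix factor, also had lower ranks in 2 of 3 RA samples (91.5, 55.5 and 44.0 in RA, against 81.1, 89.7 and 94.0 in BMS493 and 85.6, 95.1 and 90.4 in DMSO), and its difference of -24.6 ± 8.6 points from BMS493 did not pass (limma adjusted p = 0.269).

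Nuclear receptors and cofactors near raised genes had 8 sites with a median of 5.0 points for RA minus BMS493. At raraa, the gene of the receptor used in the ChIP, sites 1 and 3 ranked between 90.5 and 99.9 in all 12 samples. Site 2 of raraa ranked 96.9, 98.1 and 94.2 in RA, against 0, 79.4 and 51.7 in BMS493 and 69.7, 82.8 and 87.0 in DMSO, with a difference of 52.7 ± 13 points from BMS493 that did not pass (limma adjusted p = 0.0706). The site of nr2f5, an orphan receptor of the COUP-TF family, ranked 97.4, 97.9 and 94.9 in RA, against 86.6, 93.6 and 81.6 in BMS493 and 77.7, 94.6 and 92.2 in DMSO. At rarab, a receptor gene that RA lowered, site 1 had no peak in RA, against 0, 90.6 and 0 in BMS493, 0, 76.0 and 69.2 in DMSO and 77.8, 89.4 and 84.1 in NE, while site 2 had a peak in all 12 samples. The 7 sites of neural regulators, 5 of them tested, had a median of 33.5 points for RA minus BMS493. At an unadjusted p, 2 were higher and 1 lower, against 5.64% and 3.47% of all regions. Of the 2, ascl1a site 2 had fewer than 3 calls outside RA. The site of neurog1, a proneural factor, ranked 88.1, 72.6 and 72.5 in RA, against 0.4, 61.2 and 51.7 in BMS493 and 0, 73.1 and 75.5 in DMSO. The site of foxg1b, a forkhead factor, ranked 89.0, 85.6 and 85.2 in RA, against 64.3, 51.3 and 43.7 in BMS493 and 49.6, 69.9 and 55.7 in DMSO, with no overlap, and neither site passed with adjustment.

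Outside these lists, the sites that passed against BMS493 belonged to genes of many kinds. The site with the smallest adjusted p was that of zgc:158309, in the gene body (chr3:48524638-48524883), which ranked 89.0, 90.5 and 95.5 in RA, against 0 in all BMS493 samples, 27.1, 73.1 and 82.2 in DMSO and 67.7, 88.5 and 84.1 in NE (91.7 ± 14.5 points, limma adjusted p = 0.0208). Here RA, DMSO and NE all had peaks and BMS493 had none. The site of pdzrn3a, an E3 ubiquitin ligase gene, ranked 85.8, 75.5 and 75.8 in RA, against 0 in all BMS493 samples, 0, 20.2 and 33.2 in DMSO and 0 in all NE samples (79.0 ± 14.0 points from BMS493). The site of prkag2a, a subunit of AMP-activated kinase, ranked 73.2, 92.2 and 85.2 in RA, against 0 in all BMS493 samples and 0, 0 and 42.2 in DMSO (83.5 ± 15 points from BMS493). Both had fewer than 3 calls outside RA. The site of cyp1c1, a cytochrome P450 on the scaffold Zv9_NA892, ranked 79.8, 88.3 and 96.0 in RA, against 0 in all BMS493 samples and 0, 3.2 and 49.5 in DMSO (88.0 ± 15.7 points from BMS493, limma adjusted p = 0.0234).

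At ror1, a receptor tyrosine kinase of Wnt signalling, site 3 was called in all 12 samples and ranked 98.2, 97.0 and 89.6 in RA, against 35, 29.6 and 23.4 in BMS493 and 49.6, 57.4 and 82.2 in DMSO (65.6 ± 11.6 points from BMS493, limma adjusted p = 0.0232). The teashirt zinc finger genes tshz1 (site 2) and TSHZ3 (site 1) passed with 91.9 ± 18.9 and 81.2 ± 16.7 points (limma adjusted p = 0.0324 for both). Sites of fgg, the fibrinogen gamma chain, and of epb41l4a, a band 4.1 protein, had peaks in the 3 RA samples and in none of the other 9. They ranked 60.0, 60.8 and 34.6 at fgg and 44.6, 72.6 and 44.0 at epb41l4a. Their differences from BMS493 and from DMSO were 51.8 ± 11.1 and 53.7 ± 11.4 points, and both entered through RA. The site of EFNA2 (2 of 2), an ephrin ligand gene, ranked 63.9, 78.0 and 72.5 in RA, against a single peak of 54.6 in NE replicate 2 and none in BMS493 or DMSO. Site 1 of tshz1 ranked 50.5, 32.9 and 44.0 in RA, against 8.9 in NE replicate 2 and none elsewhere. Both also had fewer than 3 calls outside RA. Further sites that passed were si:ch211-84g22.1 sites 1 and 6 (site 6 with fewer than 3 calls outside RA) and OLFML2A (2 of 2) site 3, with differences from 70.6 to 84.1 points.

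Sites near lowered genes gave 1 call between RA and BMS493, and it went up with RA. At fscn2b, an actin-bundling fascin gene, the distal site chr12:36846764-36847012 ranked 97.7, 98.7 and 97.5 in RA, against 23.9, 56.5 and 3.8 in BMS493, 49.6, 76.0 and 78.1 in DMSO and 67.7, 87.4 and 77.0 in NE. The difference from BMS493 was 69.9 ± 12.6 points (limma adjusted p = 0.0244), at a site whose gene RA lowered.

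Head and anterior patterning is the name given here to a list of 14 genes lowered by RA, and not every member is confined to the head. The list had 21 sites, and the 16 tested had a median of 0.2 points for RA minus BMS493. At an unadjusted p, 1 was higher and 4 lower, against 5.64% and 3.47% of all regions. The site of otx2, the homeobox gene of forebrain and midbrain, ranked 37.6, 0 and 3.9 in RA, against 81.1, 65.2 and 85.7 in BMS493, 27.1, 80.8 and 72.6 in DMSO and 63.1, 63.1 and 65.4 in NE. All RA ranks were below all BMS493 and NE ranks, and the difference of -63.5 ± 16.2 points from BMS493 did not pass (limma adjusted p = 0.0804). At irx5a, an Iroquois homeobox gene, sites 1 and 2 had differences of -19.8 ± 6.8 and -40.3 ± 11.9 points (limma adjusted p = 0.255 and 0.144), while site 3 had -1.7 points. Site 4 ranked 19.9, 49.2 and 0 in RA, against 0 in all BMS493 samples (23.0 ± 17.7 points, limma adjusted p = 0.891). At ebf3 site 1 no RA sample had a peak, against ranks of 59.0, 38.1 and 34.2 in BMS493 and 14.3, 45.7 and 55.7 in DMSO. The lmx1bb site 1 went the other way, with 29.4, 72.6 and 63.9 in RA and no peak in BMS493 or DMSO (55.3 ± 15.2 points from BMS493 and from DMSO, in a region with fewer than 3 calls outside RA). The sites of gbx2, isl2a, pou5f3, sp5l and tbx2a (site 1) had a peak in at most 1 sample and were not tested.

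Signal and guidance genes had 23 sites of 16 lowered genes, with a median of 3.8 points for RA minus BMS493 over the 21 tested, 5 higher and 2 lower at an unadjusted p, against 5.64% and 3.47% of all regions. At jag1b, another Notch ligand gene, site 2 lies in a CNE and had no peak in RA, against 64.3, 74.8 and 79.1 in BMS493, 0, 78.5 and 75.5 in DMSO and 84.5, 89.4 and 88.6 in NE. Its difference of -72.7 ± 17.8 points from BMS493 did not pass (limma adjusted p = 0.0682). The site of pdgfaa, a growth factor ligand, ranked 70.5, 65.3 and 58.4 in RA, against 83.2, 87.5 and 91.3 in BMS493 and 74.0, 86.1 and 93.6 in DMSO (-22.6 ± 6.0 points from BMS493, limma adjusted p = 0.0971). At neo1, a netrin and repulsive guidance receptor gene, the ranks were 75.6, 87.0 and 58.4 in RA, against 23.9, 77.3 and 3.8 in BMS493, 64.5, 51.9 and 60.9 in DMSO and 82.5, 85.2 and 89.8 in NE. The site of epha7, an ephrin receptor gene, ranked 99.0, 93.0 and 89.6 in RA, against 72.6, 81.4 and 76.2 in BMS493, and did not pass (17.1 ± 6.9 points, limma adjusted p = 0.407). Site 2 of efna5a, an ephrin ligand gene, had no peak in any sample. Site 2 of flrt3, a membrane protein of FGF and guidance signalling, ranked 77.8, 60.8 and 34.6 in RA, against 0 in all BMS493 samples and 0, 20.2 and 49.5 in DMSO (57.7 ± 16.9 points from BMS493, limma adjusted p = 0.141).

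**Figure D5:**
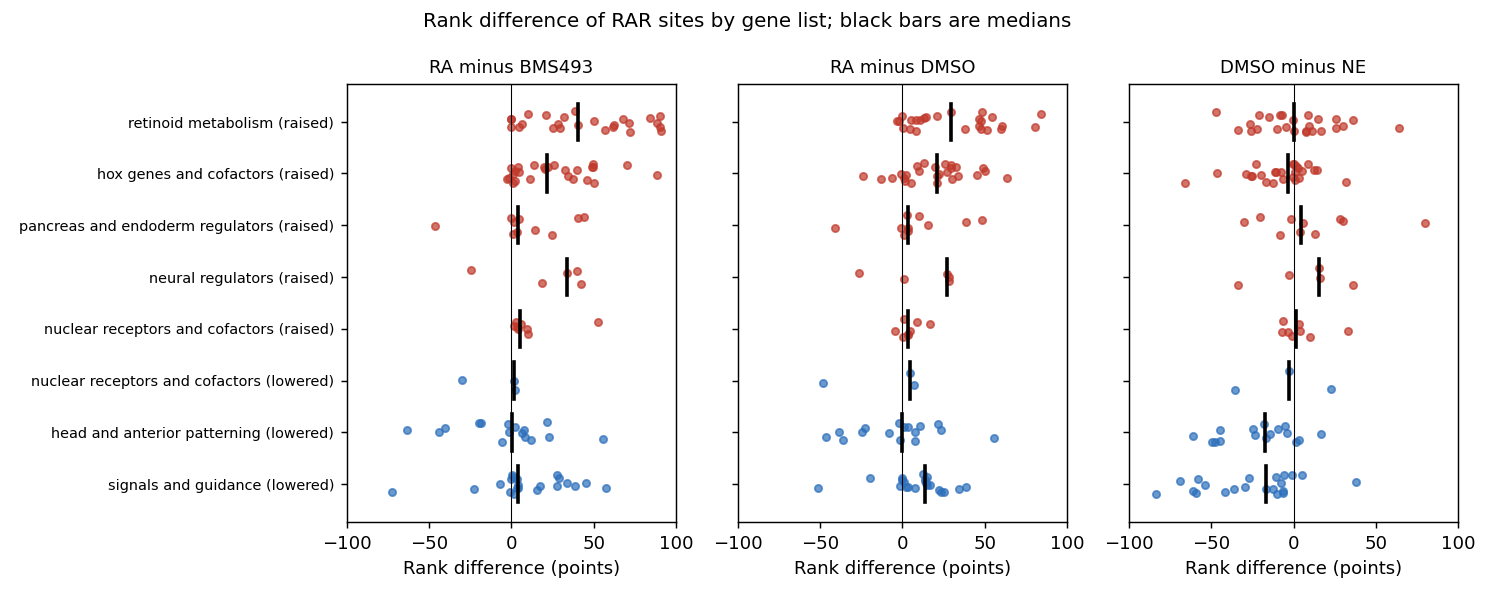
Difference in mean rank (horizontal axis, rank points) of each tested site by gene list, for RA minus BMS493, RA minus DMSO and DMSO minus NE, with raised-gene sites in red, lowered-gene sites in blue and the median of each list as a black bar. Retinoid metabolism has the medians 40.2 and 29.2 against BMS493 and DMSO, and both large lowered-gene lists have negative medians for DMSO minus NE.

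Between endodermal and non-endodermal cells of DMSO-treated embryos, the median difference was lower at lowered-gene sites than at raised-gene sites. The median difference DMSO minus NE was -16.5 points at lowered-gene sites and -0.31 points at raised-gene sites, against -3.78 points over all regions tested. By limma with adjustment, 0 lowered-gene sites were higher in DMSO and 8 lower, while 10 raised-gene sites were higher and 5 lower, against 2.16% and 4.91% of all regions. Fewer than 3 calls outside NE were found at 6 of the 8 lowered-gene sites and 2 of the 5 raised-gene sites that were lower. Among sites in regions called in at least 3 samples outside NE, 13 of 58 lowered-gene sites (22.4%, median -11.5 points) and 11 of 160 raised-gene sites (6.88%, median 0 points) were lower in DMSO at an unadjusted p, against 6.81% of such regions (median -1.42 points). At an unadjusted p, 5 lowered-gene sites (7.58%) were higher and 20 (30.3%) lower, and 21 raised-gene sites (12.7%) were higher and 14 (8.43%) lower, against 5.86% and 12.5% of all regions. The share of raised-gene sites that were lower was thus below that of all regions. It was not below it among regions called in at least 3 samples outside NE (6.88% against 6.81%). All 3 DMSO ranks were below all 3 NE ranks at 28 lowered-gene sites (42.4%) and 17 raised-gene sites (10.2%), against 13.1% of all regions. Sites that entered through NE are among these. All 3 DMSO ranks were above all 3 NE ranks at 5 lowered-gene sites and 21 raised-gene sites, against 4.68%. Without DMSO replicate 1 the median at lowered-gene sites was -6.07 points and 5 passed as lower. As lower, 2 passed without NE replicate 2, 3 without DMSO replicate 2 and 4 without NE replicate 1 or 3. At raised-gene sites the median turned to 3.78 points without DMSO replicate 1 and to 3.34 points without NE replicate 2.

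Several of these sites belong to signal receptors and ligands, and those of ephb3a, sall3b, met and eya2 entered through NE. The site of ephb3a, an ephrin receptor gene, had no peak in DMSO, against ranks of 77.8, 91.1 and 82.1 in NE (-83.7 ± 13.3 points). The site of wnt11r, a Wnt ligand gene, ranked 0, 10.4 and 22.7 in DMSO, against 90.1, 87.4 and 89.8 in NE (-69.1 ± 16.2 points, limma adjusted p = 0.0126, in a region that held a taller peak beside the site). The sites of sall3b, a spalt zinc finger gene, and of met, the receptor of hepatocyte growth factor, had no peak in DMSO, against 52.7 to 67.7 and 43.7 to 66.5 in NE (-61.2 ± 12.4 and -57.8 ± 11.4 points). The eya2 site differed by -49.8 ± 14.7 points. The flrt3 site 2 passed with -59.0 ± 16.9 points (limma adjusted p = 0.0414). Among raised-gene sites, meis2b site 2, in the body of a hox cofactor gene, was lower in DMSO than in NE (-66.0 ± 14.3 points, limma adjusted p = 0.00811), and cyp26b1 site 4 was higher (64.2 ± 12.4 points, limma adjusted p = 0.0039). With RA, meis2b site 2 ranked 73.2, 78.0 and 63.9, against 23.9, 45.2 and 34.2 in BMS493 and 0, 29.9 and 49.5 in DMSO, all below the 91.2, 96.5 and 89.8 of NE.

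At raised-gene sites the median of RA minus BMS493 rose from sites near the gene start to distal sites. The median of RA minus BMS493 was 9.5 points at the 18 tested sites within 1 kb of a gene start, 18.4 points at the 57 between 1 and 10 kb, 26.6 points at the 51 in gene bodies and 30.9 points at the 40 in distal intergenic sequence. For RA minus DMSO the medians were 9.3, 13.8, 10.7 and 20 points for the same classes, without a steady rise. At lowered-gene sites the medians of RA minus BMS493 were 0, 2.3, 1.8 and 3.5 points over 3, 17, 19 and 27 tested sites. Raised-gene sites within 1 kb were also called often in every condition, at 85% in RA, 80% in BMS493, 81.7% in DMSO and 81.7% in NE on average. The medians at raised-gene sites include sites with fewer than 3 calls outside RA, which needed calls in RA to enter the fit. They are not given by class without these sites. Differences between these classes, and the part that the upper limit of ranks has in them, were not tested.

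Raised-gene sites in CNEs and outside them had like medians, 20.7 points over 21 sites and 19.9 points over 145 sites for RA minus BMS493. Of the 25 raised-gene sites in CNEs, 14 had a peak in all 12 samples, against 67 of the 166 outside. The 27 sites of 13 genes that BMS493 lowered in the RNA-seq at the 3-somite stage had a median of 33.5 points for RA minus BMS493 over the 25 tested, against 19.7 points over the 141 tested sites of the other raised genes. For RA minus DMSO these medians were 27.0 and 11.51 points. For BMS493 minus DMSO they were -7.0 and -5.0 points. The medians by CNE and by response of the gene to BMS493 also include sites with fewer than 3 calls outside RA.

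The sign of the difference was shared over most raised genes. Of 90 raised genes with a tested site, the median over the sites of the gene was positive for RA minus BMS493 in 83 (92.2%) and negative in 7, where 53.1% of all regions had a positive difference. The 83 include her13, whose difference of 1.28e-16 points is a rounding residue of 0. For RA minus DMSO the median was positive in 78 (86.7%) and negative in 12, where 49.8% of all regions were positive. Both counts include the 17 tested raised-gene sites with fewer than 3 calls outside RA, which needed calls in RA to enter the fit. Signs per gene were not counted without these sites. Among 48 lowered genes, 29 (60.4%) and 31 (64.6%) were positive. With only the site of the highest ChIP score per gene, the median of RA minus BMS493 was 18.6 points at raised and 1.4 points at lowered genes. For DMSO minus NE, 41 of the 48 lowered genes had a negative median, and 44 of the 90 raised genes did, where 60.1% of all regions were negative.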

How the data were processed

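Peak lists of 12 ATAC-seq samples were analysed, 3 per condition. The authors aligned reads to Zv9 with Bowtie2 and called peaks per sample with MACS2 2.1.1.20160309, without control library, in single-end mode, with ends moved by 40 bp towards 3′, extended to 80 bp, at a q-value of 0.05. This moves the pileup away from the transposase cut, and its effect on heights was not tested. The deposited lists give the pileup (signal at the summit), the fold enrichment (a ratio over local background) and, per the file headers, the −log10 of p-value and q-value. None is scaled between samples, and no read counts were used here, so the study's count test was replaced by ranks.

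Sites came from the study's lists of RAR sites near RA-regulated genes, and 4 gene symbols from a table of Ensembl IDs. No Zv9 genome was used, so no site sequence is shown. Peaks of all samples were merged where they overlapped. Percentile ranks (0 where not called) of regions called in at least 3 samples were fitted by limma 3.58.1 (R 4.3.3, trend and robust) over 12 samples and 4 conditions, after a test on simulated data. Sites were mapped in Python 3.11.15. Text names sites with limma adjusted p under 0.05 between RA and DMSO or BMS493 (the 20 smallest), sites called in all RA and no DMSO samples or the reverse, and sites of listed genes. Not every site of the listed genes is named, and the others enter the counts or medians of their list. The members, gene lists and tests were chosen with earlier results of these data known. Labels do not say whether replicates came from separate batches of embryos, so p-values measure the spread between these samples. Alternatives were other overlaps, stricter or equally long lists, merging within 100 bp, 50% cover, chromosomes 1 to 25, no filter, ranks of −log10 q, a replicate block, fewer sites and leaving out each sample. Counts at an unadjusted p under alternatives, the settings of single sites and regions called in at least 3 samples outside RA or outside NE were added after the data were seen. The study's fold changes were not used, and its ChIP scores served only to select sites in 2 alternatives.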

Additional observations from a re-analysis of the deposited data

How the results depend on the processing

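At raised-gene sites the sign of RA minus BMS493 and RA minus DMSO held under every alternative, in the share called and in the median. With each sample left out in turn, the median was 14.6 to 26.02 and 4 to 18.6 points and the share differed by 18.8 to 24.4 and 5.58 to 19.7 points. With 50% of the site covered the share differed from BMS493 by 27.6 points. Counts by adjusted p did not hold. For RA above DMSO, 2 raised-gene sites became 4 with −log10 q of at least 3, 31 with lists of equal length (1 lower), 7 with 50% of the region covered, 0 with ranks of −log10 q or without the filter, and 0 to 1 with a sample left out (0 to 2 lower). For RA above BMS493, 22 became 45 with equal lists, 10 with 50% covered, 8 without the filter and 0 to 38 with a sample left out (0 to 2 lower). The 1 lower became 0 with 50% covered and without the filter. For DMSO above NE, 10 became 22 with equal lists and 6 to 15 with a sample left out. For DMSO below NE, 5 became 3 with 50% covered and 2 to 6. The causes were not tested.

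At lowered-gene sites equal lists gave 1 higher and 2 lower for RA against DMSO, 3 and 3 for RA against BMS493 and 5 higher for DMSO against NE, and 5 were lower in DMSO without the filter. With a sample left out the counts were 0 to 2 higher and 0 to 4 lower for RA against BMS493, and 0 to 2 higher and 2 to 9 lower for DMSO against NE. Signs turned at small differences. Among sites with a ChIP score above the median, the share of lowered-gene sites was -1.23 points for RA minus DMSO, -3.70 for RA minus BMS493 and 2.47 for BMS493 minus DMSO. The last was 0.813 with the centre of the site in the peak, 1.22 with 50% covered, 1.63 with equal lists and -11.99 to 3.25 with a sample left out, where it was 1.42 without DMSO replicate 2 and 3.25 without DMSO replicate 3. RA minus DMSO was -4.27 to 10.98 points. For DMSO minus NE at raised-gene sites, the share was 0.698 with −log10 q of at least 3, 2.62 with equal lists, 0.306 at high ChIP scores and -6.28 to 7.85 with a sample left out (2.71 without NE replicate 2), and the median was 1.52 with equal lists and -2.44 to 3.78 (3.34 without NE replicate 2). The median at lowered-gene sites was -0.77 to 8.65 for RA minus DMSO and -0.20 to 4.78 for RA minus BMS493. Merging within 100 bp and chromosomes 1 to 25 moved no count of raised-gene sites by more than 1.5 times, and the depth of the peak lists limits what is seen at rank 0.

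Replicate numbers are shared by all conditions, but in no contrast did every pair of samples with the same number correlate above 0.1, so the numbers were not taken as pairs. The correlations were -0.154, -0.0326 and -0.0349 for RA and DMSO, -0.143, -0.0436 and 0.0725 for RA and BMS493, 0.206, 0.182 and 0.000592 for BMS493 and DMSO and 0.0286, 0.0444 and -0.0278 for DMSO and NE. The file headers number the NE samples otherwise than the labels, whose numbers were used. With the replicate block, 0 raised-gene sites were higher in RA than in DMSO, and 13 were higher and 0 lower than in BMS493.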
